A study of Mus musculus with 12 samples.

Results

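Fibroblasts sorted from papilloma-associated skin were compared with fibroblasts sorted from wild-type skin across all measured genes. The arrays were chosen by their titles: 4 papilloma-associated and 4 wild-type, so 8 of the 12 arrays in the series. All cells came from the back skin of 7-week-old male mice that carried the PDGFRα-H2B-eGFP allele, in which the promoter of the PDGF receptor alpha drives a fluorescent histone, and were collected as GFP-positive cells after the epidermis between the follicles had been scraped off and the dermis digested. Wild-type mice carried no further allele named in the labels. Papilloma-associated skin came from tumour-bearing InvEE mice, which express an activated form of the kinase MEK1 from the involucrin promoter, in the differentiating layers of the epidermis and not in the dermis. The other 4 arrays, of InvEE skin labelled as inflamed, entered the model so that all groups shared an estimate of the spread, and their values are given beside those of the genes described. The labels give neither the distance of the sampled skin from a papilloma nor whether mice were pooled or each array came from its own animal, so the spread behind each p-value is that between these samples and may be technical.

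Dermal fibroblasts lay down and remodel the collagens, elastic fibres and proteoglycans of the skin, and they signal to the epidermis and the hair follicles through secreted growth factors and through BMP and Wnt proteins. In wounds and around tumours they can become myofibroblasts, which carry bundles of smooth muscle actin, pull on the matrix through integrins and respond to TGF-beta. The comparison addresses how fibroblasts from papilloma-associated skin of tumour-bearing InvEE mice differ from those of wild-type skin. Tumour and InvEE genotype cannot be told apart between these groups.

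The cells carried fibroblast transcripts in both groups. Values are log2 intensities, normalized so that all arrays share a distribution. Pdgfra, the gene behind the sort, read 10.34, 9.92, 10.24 and 9.26 in wild-type arrays 1 to 4 and 10.43, 10.79, 11.26 and 11.01 in papilloma-associated arrays 1 to 4. Every papilloma-associated array lay above every wild-type array, as in 7.22% of all genes, with a difference of 0.93 ± 0.25 (± standard error, limma, adjusted p = 0.0349). Results were recomputed under 21 alternatives, 12 of which each left out 1 array, and an alternative that ended a call, or a left-out array that moved its size by more than 1.5 times, is named beside the gene. Where 6 or more alternatives ended a call only their number is given, with the range of the log2 difference over the left-out arrays among them, of which there were at least 2 in each case. The Pdgfra call was lost under 9 alternatives (0.70 to 0.96). Col1a1, a chain of type I collagen, read 14.46, 14.42, 14.36 and 14.55 in wild-type and 14.46, 14.46, 14.42 and 14.55 in papilloma-associated arrays, with overlapping groups and a difference of 0.03 ± 0.13 (adjusted p = 0.935). Fap, a membrane protease widely used to mark activated fibroblasts, read 9.53, 9.59, 9.02 and 7.2 in wild-type and 6.07, 9.18, 9.53 and 4.06 in papilloma-associated arrays, and its difference of -1.63 ± 1.03 did not pass the test (adjusted p = 0.4).

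Control probes for RNA quality were read first. The 3′ minus 5′ difference of the Gapdh control probes, which grows as RNA is shorter or less completely copied, was 1.89 ± 0.30 (SD, n = 4) in wild-type and 2.73 ± 0.72 in papilloma-associated arrays (exact permutation p = 0.0571, adjusted 0.0857), and that of actin was -0.45 ± 0.05 and -0.10 ± 0.27 (exact permutation p = 0.0286, the smallest that 4 against 4 allow, adjusted 0.0857). Papilloma-associated array 4 had the highest value on both, 3.79 and 0.30. Among the inflamed arrays, array 3 stood apart on Gapdh, at 3.29 against 1.7, 1.64 and 2 in arrays 1, 2 and 4. The poly-A spike controls were highest in wild-type array 4, at 10.73, and papilloma-associated array 4, at 10.95. The other wild-type and papilloma-associated arrays read 8.34 to 9.73. All 4 inflamed arrays lay below these, at 7.24 to 7.8. A fit with the Gapdh 3′ minus 5′ difference of each array as a covariate, called the Gapdh covariate below, gave 1138 calls in place of the 1756 described next.

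Of 18193 genes tested, 1756 were called at an adjusted p under 0.05, or 9.65%. Higher levels in papilloma-associated fibroblasts made up 883 of them (4.85%) and lower levels 873 (4.80%). Against the inflamed arrays 1221 genes were called (6.71%, with 3.67% higher and 3.04% lower), and between inflamed and wild-type arrays 0.533% of genes were. Leaving out wild-type array 4 gave 1666 calls and leaving out papilloma-associated array 4 gave 1792. The split between the directions depended on the scaling. When arrays were scaled on ribosomal protein genes, 1330 genes were higher and 436 lower, and the median of all genes moved from 0.04 to 0.31. The larger differences were unevenly divided, with 29 called genes at least 16-fold higher and 9 at least 16-fold lower, and 8 against 1 at 32-fold or more. Of the 135 called genes described that had other probe sets, 94 had at least 1 of them called in the same direction, and 41 had none. The lists described below were chosen with earlier results of these data known, so a list's count is given as a description beside the shares of all genes. Those shares include 4773 genes whose means lay under 6.16 in both groups, of which 37 were called. They are thus a low baseline for lists with few such genes.

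**Figure D1:**
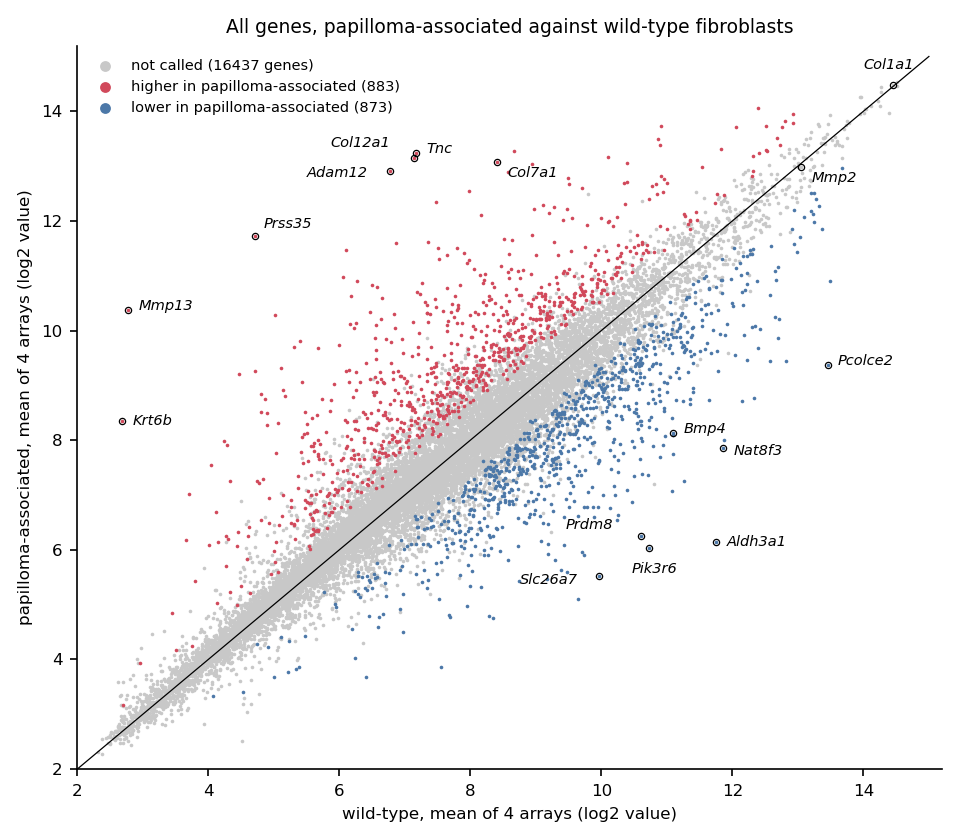
Mean log2 value of each of the 18193 genes in wild-type (x axis) and papilloma-associated arrays (y axis), 4 arrays each. Red points are the 883 genes called higher and blue points the 873 called lower; the line marks equal values, near which Col1a1 and Mmp2 lie, while Mmp13, Prss35, Col12a1, Tnc and Adam12 lie farthest above it and Aldh3a1 and Pik3r6 farthest below.

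The abundant interstitial collagens were level while several minor fibrillar collagens rose. Col3a1, the chain of type III collagen, read 14.05, 14.03, 13.95 and 14.05 in wild-type and 14.10, 14.04, 14.03 and 14 in papilloma-associated arrays (difference 0.02 ± 0.13, adjusted p = 0.945), and Col1a2 differed by 0.03 ± 0.12 (adjusted p = 0.916). All values of these genes sit near the top of the measured range, which ends at 14.96. Of the 11 fibrillar collagen chains measured, 6 were higher and 0 lower (list median 0.85). Col11a1, a chain of type XI collagen that is low in resting dermis, read 5.91, 7.44, 7.42 and 5.21 in wild-type against 10.87, 10.32, 11.02 and 11.13 in papilloma-associated arrays, a 20.2-fold rise (4.33 ± 0.50, adjusted p = 2.37e-04). The groups were far apart, and the inflamed arrays lay between them at 8.85, 8.59, 10.28 and 9.10. Col24a1 was at least 6.02-fold higher, a bound, because its wild-type mean lay under 6.16, the level below which 40% of the probe sets lie and values are called dim here (3.89 ± 0.32, adjusted p = 1.74e-05). A log2 difference printed for a dim gene is the fitted value and not a bound. Col27a1 rose 11-fold and Col5a3 5.64-fold, while Col5a1 and Col5a2, the main chains of the type V collagen that seeds fibrils, rose by 0.85 and 0.95 on the log2 scale (adjusted p = 0.0226 and 0.00502). The Col5a1 call was lost with the Gapdh covariate (0.55) and without wild-type arrays 1, 2 or 3 (0.79 to 0.86).

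Among the collagens that coat or anchor fibrils the differences were larger. Col12a1, which decorates type I fibrils in tissue under tension, read 7.09, 6.89, 7.22 and 7.34 in wild-type, 8.14, 8.15, 8.37 and 7.85 in inflamed and 12.99, 13.28, 13.20 and 13.14 in papilloma-associated arrays. No array of either other group came within 4 log2 units of the papilloma-associated arrays, and the difference was 6.02 ± 0.15 against wild-type and 5.03 ± 0.15 against inflamed arrays. Its 3 other probe sets gave 3.79 to 7.58. Col14a1, a relative that also binds fibrils, rose 8.83-fold (3.14 ± 0.60, adjusted p = 0.00621), although inflamed array 3, at 11.02, reached the papilloma-associated level. Col25a1, a transmembrane collagen, was the other called member of the 13 measured in that class (0.84 ± 0.21, adjusted p = 0.0258, list median 0.10), and its call was lost under 6 alternatives (0.74 to 0.86). Its other probe set gave 5.20 and was called as well, so the size of this rise depends on the probe set.

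Of 16 network-forming and basement membrane collagens measured, 6 were higher and 2 lower (median 0.12). Col7a1, which forms the anchoring fibrils that tie the epidermis to the dermis, read 8.68, 8.30, 8.48 and 8.18 in wild-type and 13.09, 13.08, 12.75 and 13.37 in papilloma-associated arrays, a 25.4-fold rise (adjusted p = 8.87e-07). Its papilloma-associated values were as tight as its wild-type values, with SDs of 0.25 and 0.22. Col8a1, a short-chain network collagen of vessel walls and wounds, rose 8.75-fold (log2 differences of its other probe sets 6.02 to 6.85), Col6a3 3.75-fold, and Col6a1, Col6a2 and Col18a1 by 1.03, 1.03 and 1.30 on the log2 scale. Col15a1, a basement membrane zone collagen, fell from 12.34 ± 0.39 to 10.08 ± 1.15 (adjusted p = 0.0111), with array values of 9.25, 10.78, 11.32 and 8.97, and Col4a5 fell from 7.67 ± 0.77 to a dim 4.81 ± 0.70 (at least 2.85-fold, adjusted p = 0.00931). The Col15a1 call was lost with the Gapdh covariate (-2.19).

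**Figure D2:**
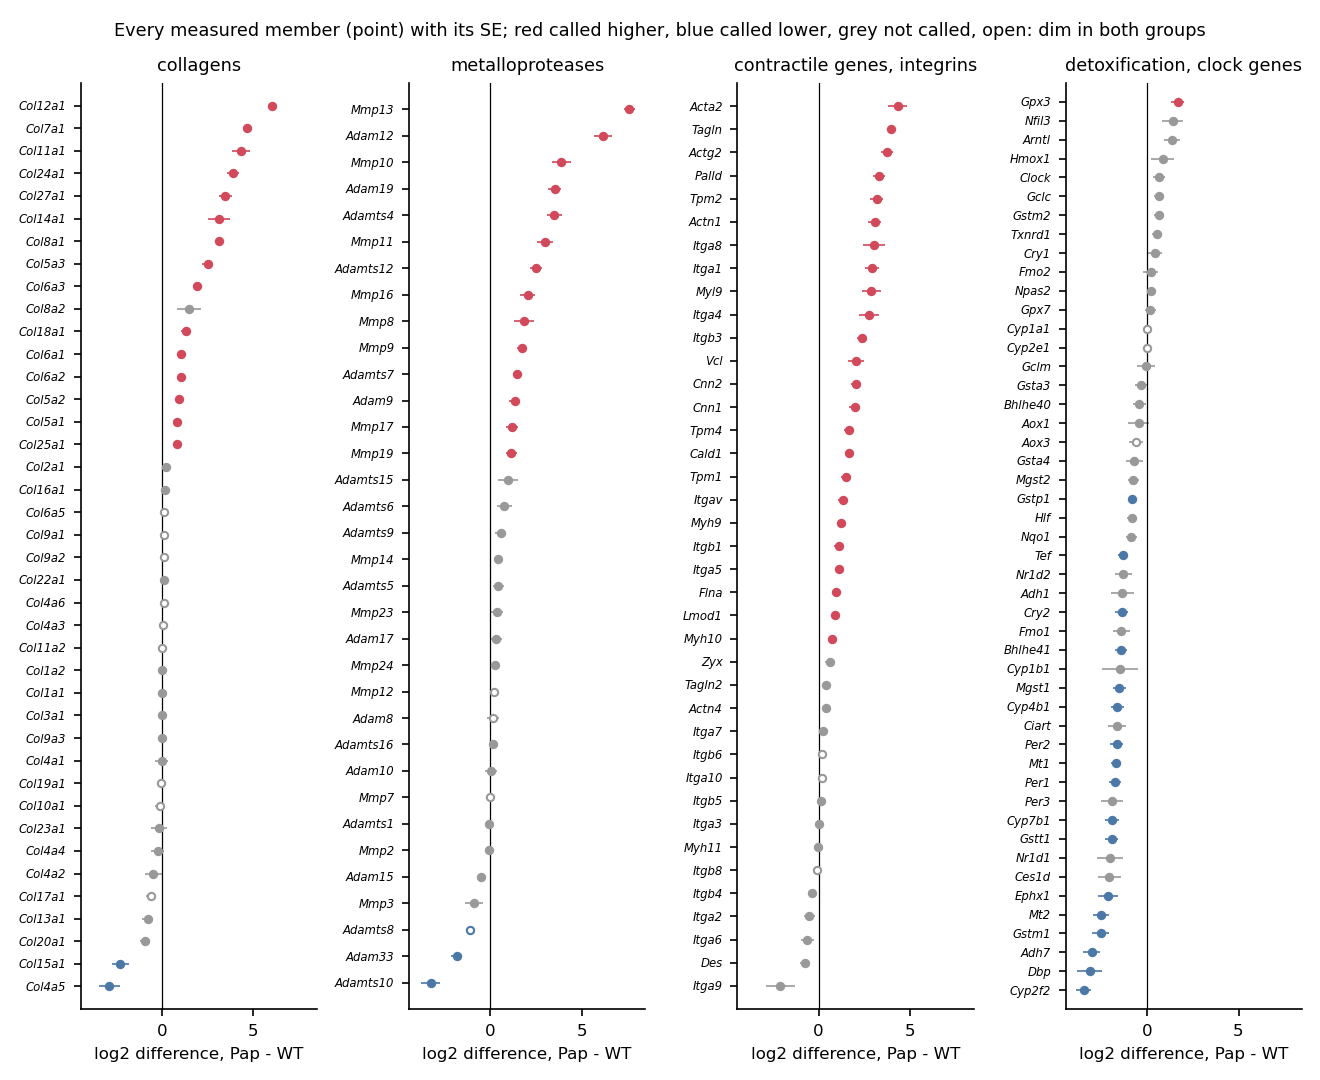
Log2 difference between papilloma-associated and wild-type arrays for every measured collagen, metalloprotease, contractile gene, integrin subunit, detoxification gene and clock gene, with the standard error as a bar. Red marks genes called higher, blue genes called lower, grey genes not called, and open circles genes dim in both groups; the contractile and integrin panel has no called member to the left of 0.

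Laminins and their partners gave fewer calls, with 2 of 15 higher and 3 lower. Nid2, a basement membrane linker, read 6.71, 6.38, 7.68 and 5.83 in wild-type and 10.91, 10.05, 10.78 and 10.62 in papilloma-associated arrays (15.4-fold higher, adjusted p = 3.72e-05), with the inflamed arrays between at 9.10, 9.38, 9.50 and 8.58. Lamb2, a laminin chain, fell by 1.91 on the log2 scale (adjusted p = 0.00189). The other calls were fragile. Hspg2, perlecan, differed by 0.67 ± 0.16 and lost its call on the 8 arrays alone, as the mean over probe sets (0.75), on a probe set free of cross-matching (0.83), with the Gapdh covariate (0.48) and without wild-type array 2 (0.65). Lamc3 differed by -1.64 ± 0.45 and lost its call under 11 alternatives (-1.67 to -1.40). Lama3, dim in papilloma-associated arrays, differed by -1.29 ± 0.29 and lost its call on the 8 arrays alone, as the mean over probe sets (-0.57), on a probe set free of cross-matching (0.15) and with the Gapdh covariate (-1.24).

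Matricellular proteins, which sit in the matrix and modulate adhesion more than they build fibres, held many of the called genes: 11 of 27 were higher and 4 lower (median 0.49). Thbs1, thrombospondin 1, an activator of latent TGF-beta, read 7.36, 7.78, 7.71 and 7.15 in wild-type and 11.77, 11.52, 10.98 and 11.76 in papilloma-associated arrays. The groups did not overlap and the difference was 4.01 ± 0.21 (adjusted p = 8.87e-07), against 3.31 ± 0.21 relative to the inflamed arrays. Thbs2 rose 6.22-fold and Thbs4 2.55-fold, a call that was lost under 6 alternatives (1.05 to 1.38). Tnc, tenascin C, a glycoprotein of wounds and tumour stroma, read 7.83, 8.02, 7.46 and 5.38 in wild-type and 13.42, 13.36, 13.26 and 12.92 in papilloma-associated arrays. Wild-type array 4 was the lowest, and without it the difference went from 6.07 to 5.48. Tnn, tenascin W, read 8.67, 7.36, 7.65 and 6.25 in wild-type and 12.65, 12.19, 12.06 and 12.48 in papilloma-associated arrays (29.1-fold, adjusted p = 2.58e-04), and Postn, periostin, 11.51, 11.32, 11.61 and 9.21 in wild-type and 13.85, 13.68, 13.62 and 13.75 in papilloma-associated arrays (7.03-fold, adjusted p = 0.00143).

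The CCN family members Ccn2 (connective tissue growth factor) and Ccn4 rose 6.32-fold and 13.2-fold. Cthrc1, a secreted protein of healing and fibrotic tissue, rose 9.89-fold, from 7.99 ± 0.43 to 11.29 ± 0.70. Fn1, fibronectin, differed by 0.84 ± 0.23 and lost its call under 11 alternatives (0.76 to 0.87). Fbln2 rose by 1.38 on the log2 scale, but was not called on a probe set free of cross-matching (0.32) or as the mean over its probe sets (0.85). Tnxb, tenascin X, which is needed for normal collagen organisation in the dermis, went the other way. It read 12.14, 12.36, 12.14 and 12.70 in wild-type, 11.37, 10.79, 10.50 and 11.58 in inflamed and 8.08, 9.82, 10.24 and 6.90 in papilloma-associated arrays, an 11.9-fold fall (adjusted p = 0.00258) that was -2.95 on the log2 scale without papilloma-associated array 4. Sparcl1, Smoc2 and Tgfbi fell by 2.70, 1.73 and 1.51 on the log2 scale. The Smoc2 call was lost with the Gapdh covariate (-1.38).

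Elastic fibre genes were mixed, with 3 of 13 higher and 4 lower (median -0.30, or -0.04 with ribosomal scaling). Eln, the elastin core of the fibre, read 12.71, 12.44, 12.31 and 13.14 in wild-type and 9.95, 9.90, 10.59 and 10.58 in papilloma-associated arrays. This was a 5.25-fold fall with no overlap between the groups (adjusted p = 5.52e-05), and the inflamed arrays stayed at 12.23, 12.13, 12.40 and 12.60. Ltbp4, which links latent TGF-beta to elastic fibres, fell 7.98-fold, from 11.09 ± 0.44 to 8.10 ± 0.99. Efemp1 and Ltbp1 fell by 2.23 and 1.14 on the log2 scale. The call was lost for Efemp1 on the 8 arrays alone and with the Gapdh covariate (-1.80) and for Ltbp1 with ribosomal scaling (-0.87) and as the mean over probe sets (-0.68). Fbn2, the fibrillin of embryonic and healing tissue, rose 6.26-fold, from 7.81 ± 0.49 to 10.46 ± 0.43 (adjusted p = 5.31e-04). Fbln5 rose by 1.15 and Emilin1 by 1.27 on the log2 scale. A second Emilin1 probe set gave 0.22, and its call was lost with the Gapdh covariate (0.78) and without papilloma-associated arrays 1 or 4 or wild-type arrays 1 or 2 (1.14 to 1.27).

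Of 21 small leucine-rich and other proteoglycans, 4 were higher and 2 lower. Kera, keratocan, best known from the cornea, read 5.61, 5.55, 5.03 and 4.25 in wild-type and 10.03, 8.92, 10.65 and 7.64 in papilloma-associated arrays, at least 8.86-fold higher from a dim wild-type level. Gpc1, a cell surface heparan sulphate carrier for growth factors, rose 9.49-fold (adjusted p = 1.74e-05), and Gpc6 and Sdc1 rose by 1.95 and 1.24 on the log2 scale. The call was lost for Sdc1 under 8 alternatives (1.00 to 1.28) and for Gpc6 on a probe set free of cross-matching (1.57). Prelp and Podn, matrix binders of this family, differed by -1.37 and -1.31, calls that were lost for Prelp under 9 alternatives (-1.42 to -1.26) and for Podn under 11 alternatives (-1.41 to -1.09). Enzymes of collagen maturation gave 3 higher and 1 lower of 21. P4ha3, a prolyl 4-hydroxylase subunit, read 6.69, 6.74, 6.37 and 6.52 in wild-type and 11, 11.44, 10.43 and 10.32 in papilloma-associated arrays, an 18.6-fold rise (adjusted p = 3.72e-06). Plod2, which hydroxylates lysines used for stable cross-links, was at least 6.51-fold higher and the lysyl oxidase relative Loxl3 6.78-fold higher. Lox itself read 11.28, 10.83, 11.36 and 10.81 in wild-type and 11.42, 11.04, 11.87 and 11.12 in papilloma-associated arrays, a difference of 0.29 ± 0.27 (adjusted p = 0.589). Pcolce2, an enhancer of procollagen cleavage that was among the 15 largest falls, read 13.46, 13.45, 13.53 and 13.38 in wild-type and 9.97, 10.85, 9.83 and 6.85 in papilloma-associated arrays. Papilloma-associated array 4 was lowest, and without it the difference went from -4.08 to -3.24.

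Proteases of the matrix were more often higher than lower. Of 34 metalloproteases of the MMP, ADAM and ADAMTS families, 14 were higher and 3 lower (median 0.52). Mmp13, the main interstitial collagenase of the mouse, read 3.08, 2.89, 2.45 and 2.69 in wild-type, 2.90, 2.96, 3.12 and 3.03 in inflamed and 10.38, 11.35, 9.77 and 9.96 in papilloma-associated arrays. Both other groups lay near the floor of the array, so the rise is given as at least 18.4-fold, against a computed 193-fold. Mmp10, stromelysin 2, read 6.41, 6.10, 6.05 and 6.47 in wild-type, 5.99, 5.77, 6 and 6.01 in inflamed and 8.89, 11.11, 9.06 and 11.51 in papilloma-associated arrays. Its papilloma-associated arrays fell into a higher pair (arrays 2 and 4) and a lower pair, all above the wild-type arrays, and the difference was 3.89 ± 0.50 (adjusted p = 4.69e-04). Mmp11, stromelysin 3, a stromal enzyme of carcinomas, rose 7.89-fold from 9.27 ± 0.57 to 12.25 ± 0.57. Mmp9, the gelatinase, rose 3.37-fold by its brighter probe set and by 3.88 on the log2 scale by the other. Mmp16 rose by 2.04 on the log2 scale. Mmp8, Mmp17 and Mmp19 rose by 1.86 (from a dim level), 1.21 and 1.15, calls that were lost for Mmp8 under 13 alternatives (1.33 to 1.99), for Mmp17 under 12 alternatives (0.91 to 1.26) and for Mmp19 under 9 alternatives (0.98 to 1.15).

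Adam12, a disintegrin protease that also cleaves growth factor precursors, read 5.17, 6.90, 6.81 and 8.23 in wild-type and 13.18, 13.09, 12.62 and 12.78 in papilloma-associated arrays, with the inflamed arrays at 8.15, 8.76, 9.27 and 8.44. All 4 papilloma-associated arrays lay more than 3 log2 units above every other array. Adam19 rose 11.5-fold, Adamts4, an aggrecanase, 11.4-fold, and Adamts12 5.63-fold, although the other Adamts12 probe set gave 0.39. Adam9 and Adamts7 rose by 1.34 and 1.44 on the log2 scale, and the Adam9 call was lost with the Gapdh covariate (1.37). Mmp2 and Mmp14, a gelatinase and its membrane-bound activator, and Mmp3, stromelysin 1, did not pass the test. In wild-type and papilloma-associated arrays Mmp2 read 13.06 ± 0.18 and 12.98 ± 0.20, Mmp14 12.87 ± 0.28 and 13.32 ± 0.18, and Mmp3 11.70 ± 0.12 and 10.81 ± 1.26, the last with a single low papilloma-associated array (8.95). Adamts10, which associates with fibrillin, fell from 10.59, 10.75, 10.52 and 10.62 to 7.42, 8.16, 8.58 and 5.35. Without papilloma-associated array 4 its difference went from -3.24 to -2.57. Adam33 fell by 1.83 on the log2 scale, and Adamts8 was called lower although dim in both groups.

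Mmp13 and Mmp10 lie close together on mouse chromosome 9 and rose together, and their promoters were read from RefSeq (GRCm38.p6, 250 bases before to 50 after the start of transcription). They are shown because each holds a match to the AP-1 consensus TGANTCA, here in capitals, at -35 in Mmp13 (chr9:7272264-7272563, plus strand) and at -63 in Mmp10 (chr9:7502092-7502391, plus strand):
Mmp13: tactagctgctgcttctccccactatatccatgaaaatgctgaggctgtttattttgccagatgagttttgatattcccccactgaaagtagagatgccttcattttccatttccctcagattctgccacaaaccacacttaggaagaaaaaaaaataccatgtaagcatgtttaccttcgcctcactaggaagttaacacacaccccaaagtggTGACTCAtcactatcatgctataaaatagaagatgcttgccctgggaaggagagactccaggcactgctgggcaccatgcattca
Mmp10: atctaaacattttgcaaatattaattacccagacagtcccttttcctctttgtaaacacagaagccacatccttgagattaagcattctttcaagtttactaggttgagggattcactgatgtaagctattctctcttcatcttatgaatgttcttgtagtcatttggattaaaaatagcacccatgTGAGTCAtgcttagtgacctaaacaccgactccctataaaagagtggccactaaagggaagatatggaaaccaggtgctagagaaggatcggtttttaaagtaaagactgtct
AP-1 is the dimer of Fos and Jun proteins. A single window was searched per gene, the first listed, so other start sites of a gene were not read. Promoters were found for 6 of the 17 called metalloproteases, and 2 of the 6 held the motif. Mmp8 lies close to both genes (chr9:7558179-7558478, plus strand) and was also called higher, a call that was lost under 13 alternatives. The window searched for Mmp8 held no match to the motif. Among the 15 largest rises, 3 of the 8 genes with a promoter held it (Mmp13, Lrrc15 at -53 and Srpx2 at -59), and among the 15 largest falls 1 of 10 did (Slco2b1 at 13). Over all genes tested with a promoter the share was 6.33%, over genes called higher 6.15% and over genes called lower 5.16%. The TEAD consensus GGAATG, searched on both strands like the first, was in 13.1%, 12.0% and 11.2%, and in none of the 6 metalloprotease promoters. It was in 1 of the 8 promoters of the largest rises (Tnn at -160) and 1 of the 10 of the largest falls (Pla2g5 at -194). A match of letters is a description of the window and not a binding site.

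Of 15 protease inhibitors and plasminogen system genes 3 were higher and 2 lower. Timp1, a tissue inhibitor of metalloproteases, read 8.25, 8.26, 8.87 and 9.15 in wild-type and 11.74, 11.70, 12.24 and 10.90 in papilloma-associated arrays (8.10-fold higher, adjusted p = 8.41e-05). Plat, tissue plasminogen activator, rose 6.53-fold with a tight papilloma-associated group (11.17 ± 0.14). Plau, urokinase, differed by 1.43 ± 0.36 and its call was lost under 8 alternatives (1.21 to 1.43). Reck, a membrane-anchored inhibitor of metalloproteases, fell from 11.32 ± 0.18 to 9.25 ± 0.51, a 4.20-fold fall, and the serpin Serpina3n fell 3.81-fold. For hyaluronan, the receptor Cd44 rose 4.92-fold to 10.63, 10.82, 10.55 and 12.41 in papilloma-associated arrays, a call that was lost with the Gapdh covariate (1.82), and the hyaluronidase Cemip2 rose 6.19-fold by its brightest probe set. The others gave log2 differences of 0.83 and 1.25, neither called. The list had 3 of 13 members higher and 0 lower. Tnfaip6, which remodels hyaluronan in inflamed matrix, rose by 1.12 on the log2 scale, a call that was lost under 9 alternatives (0.92 to 1.16).

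The contractile programme had the highest median of the 47 pathway lists, 1.66, or 1.93 with ribosomal scaling. Of 22 measured genes, 17 were higher and 0 lower. Tagln, an actin-bundling protein of smooth muscle, read 8.46, 7.65, 8.55 and 7.96 in wild-type, 9.56, 10.16, 9.43 and 9.48 in inflamed and 11.95, 11.96, 11.93 and 12.63 in papilloma-associated arrays. The groups stepped upward without overlap, and the difference from wild-type was 3.96 ± 0.25 (adjusted p = 2.74e-06). Acta2, smooth muscle actin and the usual mark of myofibroblasts, read 8.53, 8.68, 10.26 and 6.80 in wild-type and 12.79, 12.68, 12.78 and 13.30 in papilloma-associated arrays. Its 2 dimmer probe sets gave only 0.48 and 0.98, neither called, so its rise holds for the probe set used. Wild-type array 4 was the lowest, and the difference of 4.32 was 3.73 without it. Its difference from the inflamed arrays was 1.33 ± 0.54 (adjusted p = 0.143). Actg2, the enteric smooth muscle actin, was at least 10.9-fold higher (3.74 ± 0.31, adjusted p = 2.43e-05).

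Further members bundle, cross-link or regulate actin filaments. Actn1, an alpha-actinin, rose 8.34-fold and Palld, palladin, 9.79-fold. Tpm2, a tropomyosin, rose 9.03-fold, or by 1.64 on the log2 scale with a probe set free of cross-matching. Myl9, the regulatory myosin light chain, read 9.84, 10.50, 10.57 and 7.94 in wild-type and 13.05, 13.08, 12.44 and 11.82 in papilloma-associated arrays, with a difference of 2.88 that was 2.29 without wild-type array 4. Cnn1, calponin, the smooth muscle form, was at least 2.28-fold higher. Cnn2, Tpm4, Cald1, Tpm1, Myh9, Flna and Lmod1 rose by between 0.92 (Lmod1) and 2.04 (Cnn2) on the log2 scale, with Cald1 at 0.63 and not called on a probe set free of cross-matching. Vcl, vinculin, rose by 2.06, a call that was lost with the Gapdh covariate (1.93), and Myh10 by 0.73, a call that was lost as the mean over probe sets (-0.01), with the Gapdh covariate (0.59) and without papilloma-associated array 2 or wild-type array 2 (0.66 to 0.68). Desmin (Des) and smooth muscle myosin (Myh11), which mark vascular smooth muscle, did not pass the test, at -0.74 ± 0.28 and -0.02 ± 0.20. Srf, the transcription factor of many of these genes, rose by 1.23 on the log2 scale, but not by its other probe set, at 0.41.

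Integrins, which join the actin cytoskeleton to the matrix, gave 7 higher and 0 lower of 17 subunits (median 0.20). Itga1, a collagen-binding subunit, read 7.92, 8.07, 7.42 and 6.13 in wild-type and 10.26, 10.31, 10.41 and 10.20 in papilloma-associated arrays (7.52-fold, adjusted p = 4.93e-04). Itgb3, a subunit of vitronectin receptors, rose 5.14-fold and Itga8, a receptor for nephronectin and tenascins, 8.12-fold. Itga4 rose 6.68-fold, with papilloma-associated array 2 the lowest at 7.14, and by 3.38 on the log2 scale without it. Itgav, Itgb1 and Itga5 rose by 1.34, 1.12 and 1.10 on the log2 scale, Itgav without a call as the mean over its probe sets (0.36). Each of these 3 genes had another probe set with a difference below 0, at -0.41, -0.25 and -0.17. Piezo2, a mechanically gated ion channel, was at least 7.98-fold higher, while its other probe set gave 0.32.

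**Figure D3:**
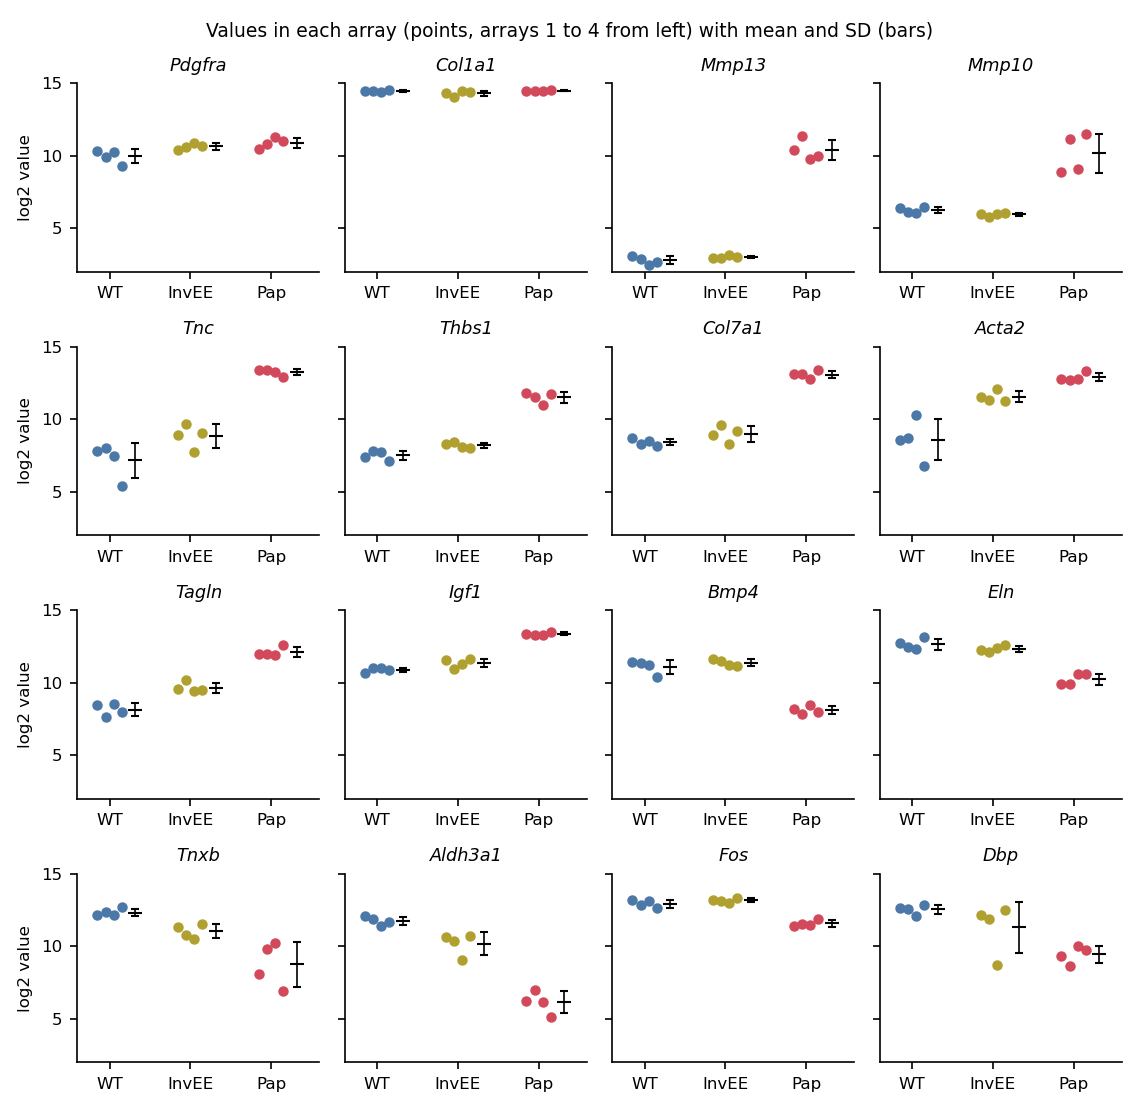
Log2 values of 16 genes in every wild-type (WT), inflamed InvEE and papilloma-associated (Pap) array, with the group mean and SD beside the points. Col1a1 is level across the groups, Mmp13, Mmp10, Thbs1, Col7a1, Tnc and Igf1 are higher in the 4 Pap arrays than in the other 8, the means of Tagln and Acta2 step upward over the groups, and Bmp4, Eln, Tnxb, Aldh3a1 and Fos are low in the Pap arrays.

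Genes that mark fibroblast subsets gave a divided picture. Among 17 general and activated fibroblast genes 3 were higher (Pdgfra, Twist2 and Lrrc15) and 3 lower (S100a4, Cd34 and Twist1), with a median of 0.03. Lrrc15, a surface protein of TGF-beta-driven tumour fibroblasts, read 8.90, 9.57, 10.32 and 5.86 in wild-type, 11.50, 11.67, 10.66 and 11.55 in inflamed and 13.40, 13.30, 13.11 and 13.28 in papilloma-associated arrays. Its papilloma-associated values were tight and its wild-type values spread over more than 4 log2 units, and the difference of 4.61 was 3.68 without wild-type array 4. Cd34, a marker of resting interstitial fibroblasts, fell from 12.39 ± 0.18 to 9.68 ± 1.41, with array 4 lowest at 7.90 and a difference of -2.11 without it. S100a4, Twist1 and Twist2 differed by -1.32 ± 0.34, -0.61 ± 0.17 and 1.03 ± 0.27, and the call was lost for S100a4 under 9 alternatives (-1.35 to -1.11), for Twist1 under 16 alternatives (-0.66 to -0.57) and for Twist2 under 8 alternatives (0.86 to 1.07).

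Of 14 papillary dermis markers, 0 were higher and 2 lower. Rspo1, a Wnt agonist, read 10.73, 11.02, 10.71 and 10.69 in wild-type and 8.63, 9.83, 9.64 and 9.47 in papilloma-associated arrays, a 2.63-fold fall (adjusted p = 0.00771). Dpp4, the peptidase known as CD26, fell from 10.51 ± 0.12 to 8.52 ± 1.17 and its call was lost on the 8 arrays alone and with the Gapdh covariate (-1.15). The list median, -0.22, was 0.04 with ribosomal scaling, so its direction depends on the scaling. Reticular dermis and fascia markers gave 2 higher of 13 and none lower. Dkk3 rose 3.49-fold, and Gpx3, a secreted glutathione peroxidase, read 12.56, 12.84, 12.72 and 11.44 in wild-type and 14, 14.10, 14.04 and 14.11 in papilloma-associated arrays (3.19-fold higher, adjusted p = 0.00801). Hair follicle dermal papilla and sheath markers moved both ways, 4 of 21 higher (Itga8, Mylk at 2.33, Wnt5a and Crabp1 at 1.66) and 4 lower (Bmp4, Fgf7, Sox18 at -1.67 and Sox2, dim in both groups, at -1.33, log2 differences). The call was lost for Sox18 under 16 alternatives (-1.80 to -1.20) and for Sox2 under 12 alternatives (-1.44 to -1.21), and without wild-type array 1 a single member of the list was lower. Of 21 Hox genes, which record position along the body, Hoxc4 alone was called (-0.99 ± 0.15), and not with ribosomal scaling (-0.73).

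TGF-beta family genes moved in both directions. Of 23 genes, 5 were higher and 3 lower (median 0.35), but with the 8 arrays of the comparison alone, with the Gapdh covariate or without papilloma-associated array 1 only 2 were higher, and with ribosomal scaling 0 were lower. Pmepa1, a feedback target of TGF-beta, read 10.40, 10.19, 10.62 and 10.34 in wild-type, 11.26, 11.57, 10.92 and 11.30 in inflamed and 13.08, 12.99, 13.06 and 13.10 in papilloma-associated arrays. These groups did not overlap, and the difference from wild-type was 2.67 ± 0.16 (adjusted p = 1.60e-06). Inhbb, a subunit of activin, read 9.33, 8.66, 9.59 and 6.78 in wild-type and 11.34, 10.86, 10.67 and 11 in papilloma-associated arrays (2.38, or 1.77 without wild-type array 4). Of the 3 TGF-beta ligands none was called higher. Tgfb1 read 7.71 ± 0.16 in wild-type and 8.09 ± 1.13 in papilloma-associated arrays, Tgfb3 8.51 ± 0.17 and 9.54 ± 0.86 (adjusted p = 0.0792), and Tgfb2 fell by 1.08 on the log2 scale, a call that was lost with ribosomal scaling (-0.82) and with the Gapdh covariate (-1). Ski, a repressor of Smad proteins, differed by -0.92 ± 0.23, a call that was lost under 7 alternatives (-0.87 to -0.76). The effector Smad2 rose by 1.54, and the inhibitors Smad7 and Skil by 1.42 and 1.32 on the log2 scale, but the call was lost for Smad2 under 11 alternatives (1.13 to 1.61), for Smad7 under 12 alternatives (1.15 to 1.5) and for Skil under 7 alternatives (1.25 to 1.33).

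Of 24 BMP signalling genes 7 were lower and 2 higher, and on the 8 arrays alone 4 were lower. Their median was -0.04, or 0.23 with ribosomal scaling, and 12 members differed upward and 12 downward. Bmp4, a ligand that dermal cells send to the follicle and the epidermis, read 11.43, 11.37, 11.20 and 10.38 in wild-type, 11.63, 11.53, 11.19 and 11.14 in inflamed and 8.22, 7.87, 8.44 and 7.99 in papilloma-associated arrays, a 7.79-fold fall with no overlap. The Id genes, which BMP receptors switch on, fell as well. Id3 read 11.42, 11.16, 11.01 and 11.20 in wild-type and 10.11, 9.98, 10.13 and 10.02 in papilloma-associated arrays (adjusted p = 1.86e-04), Id2 fell by 1.18 and Id1 by 0.92 on the log2 scale. Among the Id genes the call was lost for Id2 on a probe set free of cross-matching (-1.75) and for Id1 under 9 alternatives (-0.92 to -0.78). Acvrl1 and Smad1, a receptor and an effector of the pathway, fell by 1.46 and 0.89, and Bambi, a decoy receptor, by 1.61 on the log2 scale. The call was lost for Acvrl1 on the 8 arrays alone, on a probe set free of cross-matching (-0.71) and with the Gapdh covariate (-1.16), for Smad1 with median centring (-0.78), with ribosomal scaling (-0.62), on the 8 arrays alone, as the mean over probe sets (-0.62) and with the Gapdh covariate (-0.65) and for Bambi without papilloma-associated arrays 1 or 2 or wild-type arrays 1 or 2 (-1.53 to -1.41). Grem1, a secreted BMP antagonist, read 10.84, 10.34, 10.78 and 8.99 in wild-type and 11.63, 12.48, 11.86 and 12.34 in papilloma-associated arrays (1.84 ± 0.45, adjusted p = 0.0236), while the inflamed arrays were lower than both at 8.88, 8.98, 7.30 and 8.93. The receptor Bmpr2 rose by 0.97 on the log2 scale. Calls were lost for Grem1 without papilloma-associated arrays 2 or 4 or wild-type array 2 (1.71 to 1.88) and for Bmpr2 under 8 alternatives (0.75 to 1.02).

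Wnt genes gave 3 higher and 2 lower of 30, and with the Gapdh covariate 0 were higher. Wnt5a, a ligand of the non-canonical pathway, read 10.02, 9.42, 9.75 and 9.79 in wild-type and 12.04, 10.92, 10.84 and 12.33 in papilloma-associated arrays, a difference of 1.78 ± 0.44 whose call was lost with the Gapdh covariate (1.02) and without papilloma-associated arrays 1 or 4 or wild-type arrays 2 or 3 (1.52 to 1.79). Wnt4 and Wnt10a differed by 1.24 ± 0.28 and 1.91 ± 0.55, and the call was lost for Wnt4 on the 8 arrays alone and with the Gapdh covariate (1.19) and for Wnt10a under 13 alternatives (1.37 to 2.04). Notum, an enzyme that inactivates Wnt proteins, fell by 0.98 on the log2 scale, a call that was lost under 8 alternatives (-1.01 to -0.78). Sfrp2, a secreted Wnt-binding protein made by dermal fibroblasts, rose from 10, 9.73, 8.85 and 7.2 to 13.22, 13.15, 12.86 and 12.91. The papilloma-associated values were tight and the wild-type values spread widely, and the difference was 4.09 ± 0.58 (adjusted p = 9.73e-04). The rises of Sfrp2 and Dkk3 were the 2 calls among 13 secreted inhibitors. Smo, the transducer of hedgehog signals, was the call among 12 hedgehog genes (0.91 ± 0.23), and was lost under 7 alternatives (0.85 to 0.89).

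Growth factors were higher in 10 of 37 cases and lower in 2 (median 0.42). Igf1, insulin-like growth factor 1, read 10.67, 11.01, 11 and 10.88 in wild-type, 11.57, 10.97, 11.28 and 11.62 in inflamed and 13.33, 13.32, 13.32 and 13.53 in papilloma-associated arrays. This was a 5.6-fold rise (adjusted p = 3.72e-06), and its other probe sets gave 3.17 to 4.53. Pdgfc, a ligand of the PDGF receptor alpha on the same cells, read 7.56, 7.45, 7.48 and 8.07 in wild-type and 11.77, 10.53, 10.90 and 12.33 in papilloma-associated arrays (13.4-fold, adjusted p = 6.35e-05). Hgf, which acts on epithelial cells through Met, rose 4.95-fold by the probe set used, and its other probe sets gave 0.17 and 1.51, neither called. The EGF receptor family ligands Ereg and Nrg1 were dim in wild-type arrays, and Ereg, at 6.4, 6.81, 5.59 and 7.93 in papilloma-associated arrays, was at least 1.43-fold higher. Nrg1 was dim in both groups, at 4.44 ± 0.10 and 6.07 ± 0.41. Gdnf was at least 1.31-fold higher from a dim wild-type level, without a call on the 8 arrays alone, and Fgf1 was called higher although dim in both groups. Angpt1 rose by 0.74 on the log2 scale, without a call as the mean over its probe sets (0.65).

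Fgf7, keratinocyte growth factor, fell from 10.89 ± 0.17 to 8.71 ± 1.23 (adjusted p = 0.0249). Its call was lost under 6 alternatives (-2.22 to -2.11). Igfbp6, which binds insulin-like growth factors, fell by 1.86 on the log2 scale, a call that was lost on the 8 arrays alone, with the Gapdh covariate (-1.88) and without wild-type arrays 2 or 3 (-1.74 to -1.70). When dim genes were left out of the test 5 growth factors were higher, against 10. Efnb2, a ligand of Eph receptors, was at least 7.09-fold higher, Sema3g rose 4.69-fold and Sema3b fell 3.94-fold among 31 guidance genes with 3 higher and 1 lower. As the mean over probe sets 8 of the guidance genes were higher and 5 lower.

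Of 28 chemokines 3 were higher and 1 lower, and of 32 cytokines and receptors 3 each way. The count of higher chemokines depended on the setting, with 8 under the Gapdh covariate, 7 with ribosomal scaling and 5 without papilloma-associated array 4. Il6 read 6.32, 5.77, 7.6 and 4.04 in wild-type and 4.36, 6.78, 6.28 and 3.05 in papilloma-associated arrays, with overlapping groups, dim means and a difference of -0.82 ± 0.93 (adjusted p = 0.675). Its receptor chain Il6ra fell from 10.72 ± 0.32 to 8.24 ± 0.75 (5.58-fold, adjusted p = 0.00129), and the shared chain Il6st differed by -1.45 ± 0.37, a call that was lost under 8 alternatives (-1.47 to -1.31). Cxcl5, a neutrophil attractant, was at the floor in wild-type arrays (3.57, 3.66, 3.81 and 3.62) and read 4.97, 7.67, 7.09 and 5.00 in papilloma-associated arrays, a call whose bound was at least 1.01-fold. Ccl9 rose 3.17-fold, or by 0.37 on the log2 scale with no call by its other probe set. Ccl12 read 8.47, 8.53, 7.86 and 4.17 in papilloma-associated arrays, so array 4 lay among the dim wild-type values (4.07, 4.56, 3.94 and 4.76). Ccl12 was at least 2.14-fold higher, and the fitted difference of 2.92 was 3.95 without that array. The Ccl12 call was lost under 7 alternatives (2.50 to 3.00). Ccl11, eotaxin, differed by -2.26 ± 0.61, a call that was lost under 13 alternatives (-2.33 to -1.63). Tnfrsf11b, osteoprotegerin, a soluble decoy receptor, rose 6.07-fold (adjusted p = 1.71e-05).

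Ptgs2, the inducible cyclooxygenase, read 5.00, 4.10, 5.11 and 5.01 in wild-type and 9.78, 9.30, 6.48 and 8.51 in papilloma-associated arrays, at least 5.12-fold higher (adjusted p = 0.00168). Array 3 was the lowest, and the difference of 3.71 was 4.39 without it. The adhesion receptor Icam1, often raised by NF-kappaB, fell 6.33-fold, from 11.07 ± 0.46 to 8.41 ± 1.06, and the NF-kappaB inhibitor Nfkbie fell to a dim mean by 2.48 on the log2 scale, or 1.77 without papilloma-associated array 4, a call that was lost on the 8 arrays alone and with the Gapdh covariate (-1.71). These were 3 of the 4 calls among 17 NF-kappaB genes, the other being Sod2 (1.10), which was lost under 10 alternatives (0.88 to 1.13). Interferon-stimulated genes were higher in 6 of 20 cases and lower in 0 (median 0.69). Ifit1 read 7.61, 7.44, 7.42 and 8.10 in wild-type and 10.25, 10.24, 10.21 and 9.29 in papilloma-associated arrays, with array 4 the lowest of its group (5.12-fold, adjusted p = 2.58e-04), and Oasl2 read 8.02, 7.35, 7.06 and 7.49 in wild-type and 9.92, 9.48, 10.09 and 7.92 in papilloma-associated arrays, where array 4 overlapped the wild-type arrays. Without papilloma-associated array 4, 11 of the 20 were called. Oas1a, Bst2 and Irf9 rose by 1.55, 0.98 and 0.95 on the log2 scale, and Mx2, dim in both groups, by 0.89, a call that was lost under 6 alternatives (0.71 to 0.90). None of 12 MHC class I presentation genes was called (median -0.62).

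Of 22 prostaglandin and phospholipid enzymes 4 were higher and 4 lower, some by large amounts. Pla1a, which makes lysophosphatidylserine, read 6.02, 6.44, 5.71 and 6.23 in wild-type and 11.72, 11.78, 11.49 and 10.89 in papilloma-associated arrays, at least 37.3-fold higher, and Pla2g7, which inactivates platelet-activating factor, 4.89, 5.49, 5.32 and 4.39 in wild-type and 10.54, 11.45, 9.14 and 9.98 in papilloma-associated arrays, at least 17.3-fold higher. The secreted phospholipases Pla2g5 and Pla2g2e were lower. Pla2g5 read 9.69, 9.53, 9.38 and 9.28 in wild-type and 5.04, 5.93, 5.21 and 6.20 in papilloma-associated arrays (at least 9.84-fold), and Pla2g2e 10.98, 11.84, 11.59 and 8.44 in wild-type and 5.99, 6.71, 8.6 and 8.15 in papilloma-associated arrays, where array 4 of the wild-type lay within the papilloma-associated range and the difference of -3.35 was -4.11 without it and lost its call with the Gapdh covariate (-3.05). Complement genes had 2 higher and 1 lower of 15. Hc, component C5, was at least 3.47-fold higher, with papilloma-associated array 1 at the wild-type level (5.89), and 3.03 on the log2 scale without it. The Hc call was lost on the 8 arrays alone and with the Gapdh covariate (2.04). Masp1 rose 9.05-fold by the probe set used, but a probe set free of cross-matching gave 0.41, not called. Serping1, the C1 inhibitor, fell by 1.01 on the log2 scale, a call that was lost with ribosomal scaling (-0.75), on the 8 arrays alone, with the Gapdh covariate (-0.81) and without wild-type arrays 2 or 3 (-1.01 to -0.98).

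Cholesterol synthesis genes were higher in 7 of 15 cases and lower in 0 (median 0.90). Cyp51 read 6.88, 7.93, 8.22 and 8.18 in wild-type and 10.56, 10.27, 10.62 and 10.03 in papilloma-associated arrays (5.92-fold, adjusted p = 2.79e-04), and the inflamed arrays read 9.64, 9.39, 10.16 and 9.13. Its other probe sets gave log2 differences of 0.75 and 1.52, neither called. Hmgcs1 rose 3.65-fold and Sqle 4.21-fold, and Lss by 1.32 on the log2 scale. Fdft1, Mvd and Sc5d rose by 1.33, 1.26 and 0.90, but the call was lost for Fdft1 under 8 alternatives (1.14 to 1.29), for Mvd under 8 alternatives (1.02 to 1.23), for Sc5d under 11 alternatives (0.77 to 0.92) and for Lss with the Gapdh covariate (1.07). With the Gapdh covariate 3 members were called higher, and without papilloma-associated array 3 it was 4. Adipogenic and lipid storage genes gave 2 higher and 5 lower of 24. Plin4, a lipid droplet coat protein, fell 5.56-fold with no overlap (9.63, 9.28, 8.91 and 10.27 in wild-type against 7.12, 6.83, 6.85 and 7.38 in papilloma-associated arrays), and the inflamed arrays were already low at 7.68, 6.98, 7.49 and 8.04. Apoe, which carries lipids between cells, read 10.18, 10.63, 11.14 and 9.75 in wild-type and 8.07, 8.37, 8.05 and 9.75 in papilloma-associated arrays (3.64-fold lower, adjusted p = 0.0129).

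Of 31 detoxification genes 11 were lower and 1 higher (median -0.80, or -0.54 with ribosomal scaling). Cyp2f2 read 12.29, 12.32, 12.08 and 11.89 in wild-type and 9, 8.29, 8.18 and 9.36 in papilloma-associated arrays, a 10.8-fold fall (adjusted p = 2.86e-04), and the inflamed arrays read 10.98, 10.38, 9.15 and 11.32. Adh7 fell 8.11-fold and Gstm1 5.75-fold, and the metallothioneins Mt1 and Mt2, which bind zinc, fell by 1.69 and 2.50 on the log2 scale. The fall of Ephx1 (4.35-fold) lost its call under 6 alternatives (-2.19 to -2). With the Gapdh covariate 7 members were called lower. Of 23 aldehyde dehydrogenases and retinoid genes 2 were higher and 4 lower. The aldehyde dehydrogenase Aldh3a1 read 12.07, 11.88, 11.40 and 11.67 in wild-type, 10.66, 10.37, 9.05 and 10.71 in inflamed and 6.26, 7.01, 6.15 and 5.16 in papilloma-associated arrays. It was the largest fall among the 873 genes called lower, at least 41.0-fold to a dim mean. Aldh1a1, which makes retinoic acid, fell from 10.48, 9.81, 10.48 and 10.27 to 5.23, 7.69, 8.21 and 5.42, lowest in arrays 1 and 4. Aldh2 fell by 2.05 on the log2 scale (1.41 without papilloma-associated array 4), a call that was lost on the 8 arrays alone, with the Gapdh covariate (-1.54) and without wild-type array 4 (-1.89). Rarres2, the precursor of the chemoattractant chemerin, read 13.49 ± 0.11 and 10.91 ± 0.80 by the probe set used, while a probe set free of cross-matching gave -0.66, not called.

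**Figure D4:**
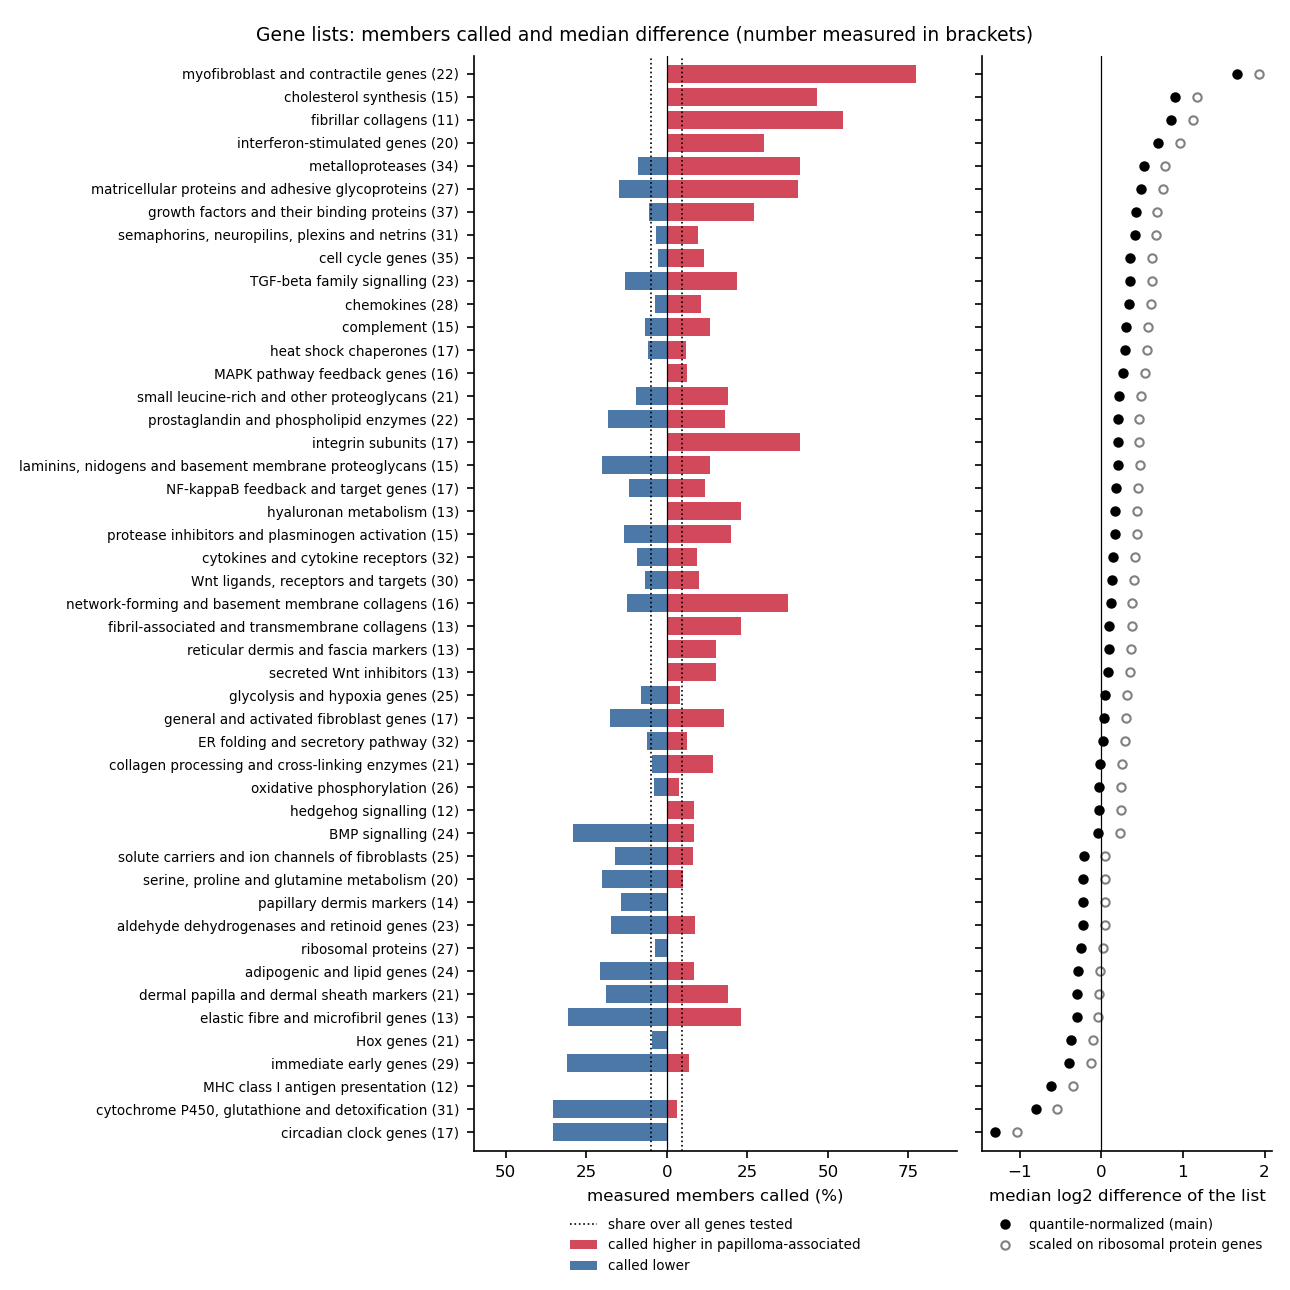
Left, the share of measured members called higher (red) or lower (blue) in papilloma-associated arrays for 47 pathway lists, with dotted lines at the shares over all genes (4.85% and 4.80%). Right, the median log2 difference of each list under the main scaling (filled) and with ribosomal scaling (open), which moves every list up by 0.27; contractile genes lead at 1.66 and clock genes are last at -1.30.

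Clock genes had the lowest median of the 47 lists, -1.30 (-1.03 with ribosomal scaling), with 6 of 17 lower and 0 higher. Dbp, a direct output of the clock, read 12.66, 12.60, 12.13 and 12.88 in wild-type, 12.15, 11.88, 8.72 and 12.49 in inflamed and 9.36, 8.67, 10.02 and 9.73 in papilloma-associated arrays. Inflamed array 3, which had the highest Gapdh 3′ minus 5′ difference of its group, was as low as the papilloma-associated arrays. The difference from wild-type was -3.12 ± 0.67 (adjusted p = 0.0114) and lost its call with the Gapdh covariate (-2.43). Per1 read 9.85, 9.70, 9.92 and 8.81 in wild-type and 8.03, 7.71, 8.23 and 7.42 in papilloma-associated arrays, a 3.30-fold fall, and Per2, Bhlhe41, Tef and Cry2 fell by 1.65, 1.40, 1.29 and 1.38 on the log2 scale, Per2 to a dim mean. Calls were lost for Per2 with the Gapdh covariate (-1.53), for Bhlhe41 with ribosomal scaling (-1.13), for Tef with the Gapdh covariate (-1.14) and for Cry2 under 6 alternatives (-1.30 to -1.16). The opposing clock gene Arntl differed by 1.36 ± 0.45 and did not pass the test (adjusted p = 0.0787). With the Gapdh covariate 2 members were called lower, and with the mean over probe sets 9. The labels give no hour of collection, so time of day and group cannot be told apart.

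Immediate early genes, which dissociation and stress can raise within minutes, were lower in 9 of 29 cases and higher in 2 (median -0.40). Fos read 13.18, 12.83, 13.14 and 12.63 in wild-type and 11.39, 11.55, 11.49 and 11.89 in papilloma-associated arrays, a 2.57-fold fall (adjusted p = 3.48e-04), and the inflamed arrays read 13.22, 13.15, 13.00 and 13.36. Jun read 13.19, 13.06, 13.08 and 13.01 in wild-type and 12.07, 12.01, 12.12 and 12.11 in papilloma-associated arrays (adjusted p = 0.00168). Klf2 and Klf4 fell by 1.79 and 2.82 on the log2 scale, Klf4 by 2.12 without papilloma-associated array 4. Fosb fell by 1.53, a call that was lost with the Gapdh covariate (-1.19). Junb and Atf3 differed by -1.10 ± 0.28 and -2.20 ± 0.58, calls that were lost for Junb under 9 alternatives (-1.13 to -1.02) and for Atf3 under 7 alternatives (-2.28 to -1.79). With the Gapdh covariate 5 members were called lower, and without papilloma-associated array 2 it was 6. Fosl2, an AP-1 subunit, differed the other way, by 1.53 ± 0.33, while its other probe set gave 0.14 and the mean over both lost the call (0.83).

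In the cell cycle list 4 of 35 genes were higher and 1 lower. Both cell cycle inhibitors of the Ink4 locus rose. Cdkn2b, which encodes p15, read 7.62, 6.78, 7.54 and 6.48 in wild-type and 9.56, 9.57, 9.70 and 9.35 in papilloma-associated arrays, a 5.43-fold rise (adjusted p = 7.2e-05), and Cdkn2a 6.38, 6.56, 6.18 and 6.80 in wild-type and 8.55, 8.22, 8.03 and 9.21 in papilloma-associated arrays, a 4.06-fold rise (adjusted p = 2.99e-04). In both genes the inflamed arrays lay at the wild-type level (6.62, 6.17, 6.23 and 6.16 for Cdkn2a). Cdkn1b, p27, fell by 1.08 on the log2 scale, a call that was lost with ribosomal scaling (-0.82). Mki67, a proliferation marker, read 7.35, 7.50, 8.46 and 5.29 in wild-type and 7.82, 8.29, 8.76 and 10.53 in papilloma-associated arrays and did not pass the test (1.70 ± 0.66, adjusted p = 0.137). The replication genes Mcm4 (1.82 ± 0.51) and Rrm2 (2.14 ± 0.60) completed the list, calls that were lost for Mcm4 under 15 alternatives (1.32 to 2.01) and for Rrm2 under 14 alternatives (1.74 to 2.14). Without wild-type array 3 the Rrm2 difference was 2.76, and its other probe sets gave -0.27 and -0.14.

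The remaining gene lists are given as counts, beside shares over all genes of 4.85% higher and 4.80% lower. Glycolysis and hypoxia genes had 1 higher and 2 lower of 25, and oxidative phosphorylation genes 1 and 1 of 26. Genes of serine, proline and glutamine metabolism had 1 higher (5%) and 4 lower (20%) of 20. Heat shock chaperones had 1 higher and 1 lower of 17, ER folding and secretory genes 2 and 2 of 32, ribosomal proteins 0 and 1 of 27, and MAPK feedback genes 1 and 0 of 16. Solute carriers and ion channels of fibroblasts had 2 higher (8%) and 4 lower (16%) of 25.

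Several of the largest differences lay outside these groups. Prss35, a secreted protein related to serine proteases, read 4.60, 4.73, 4.63 and 4.90 in wild-type and 12.80, 12.20, 11.51 and 10.40 in papilloma-associated arrays, at least 47.3-fold higher. Ucn2, urocortin 2, a peptide of the corticotropin-releasing family, read 6.11, 5.86, 6.01 and 6.27 in wild-type and 10.44, 11.17, 10.81 and 11.51 in papilloma-associated arrays (at least 27.7-fold), and Sbspon, a matrix protein with somatomedin B and thrombospondin domains, was at least 8.29-fold higher. Sorcs2, a neurotrophin co-receptor, rose 24.7-fold from 6.27 ± 0.32 to 10.90 ± 0.30, and Srpx2, a secreted sushi-domain protein, rose 26.7-fold to 11.60 ± 0.11. Bpgm, an enzyme of red cell glycolysis, read 7.33, 8.37, 8.68 and 7.55 in wild-type and 12.51, 12.72, 12.40 and 12.54 in papilloma-associated arrays (adjusted p = 1.69e-06), and the pyrimidine salvage kinase Uck2 rose 19.2-fold.

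Among the other large falls, Pik3r6, which regulates PI3 kinase gamma, read 10.89, 10.58, 9.98 and 11.43 in wild-type and 6.14, 5.73, 5.82 and 6.46 in papilloma-associated arrays (at least 22.4-fold lower). Kcnj8, an ATP-sensitive potassium channel subunit, fell 16.1-fold, from 10.87, 11.03, 11.09 and 11.32 in wild-type to 6.56, 7.09, 6.91 and 7.74 in papilloma-associated arrays (adjusted p = 4.17e-06). Prdm8, a chromatin regulator, read 6.62, 7.07, 7.48 and 3.88 in papilloma-associated arrays against a wild-type mean of 10.60 ± 0.79, and the difference of -4.34 was -3.55 without array 4. Slc26a7, an anion transporter, read 10.73, 10.77, 9.70 and 8.66 in wild-type, 12.09, 12.33, 10.03 and 11.23 in inflamed and 7.43, 5.22, 5.93 and 3.52 in papilloma-associated arrays. Its highest value was in inflamed array 2. It was at least 11.2-fold lower, to a dim mean, and the fitted difference of -4.44 was -3.77 without papilloma-associated array 4 and -5.07 without array 1. Its other probe set gave -2.85. Nat8f3, Kazald1 and Slco2b1 fell 16.1-, 16.2- and 14.6-fold (Slco2b1 by 4.45 on the log2 scale without papilloma-associated array 2), and Cdh4, a cadherin, fell 13.0-fold (adjusted p = 4.27e-06). The other Cdh4 probe sets gave log2 differences of -4.47 and -1.25, and 1 of them was called.

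The transcript 9330159F19Rik and the genes Amy1, Sectm1a, Maob, Ecm2 and Gm32031 reached dim papilloma-associated means and fell at least 10.9-, 9.58-, 9.37-, 8.89-, 7.46- and 6.56-fold. The other probe set of 9330159F19Rik was also called but gave a log2 difference of -1.41. Sectm1a read 9.25, 9.02, 9.52 and 9.78 in wild-type and 5.62, 5.50, 5.90 and 5.52 in papilloma-associated arrays. Maob degrades biogenic amines and Ecm2 is a matrix protein.

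Markers of other cell types were read beside these results, since a sort can carry other cells or their RNA. Summed levels of fibroblast markers lay between 16.75 and 16.78 in wild-type and between 16.66 and 16.78 in papilloma-associated arrays (log2 of the summed values). That sum rests on genes near the top of the measured range, collagens among them. Of 13 macrophage markers 6 differed upward and 7 downward (median -0.06) and 2 were called, both lower. Their sum, 12.07 to 12.39 in wild-type against 10.86 to 11.35 in papilloma-associated arrays, was mostly Csf1r in wild-type. Csf1r, the receptor of a macrophage growth factor, read 11.76, 11.88, 11.84 and 11.58 in wild-type and 9.45, 9.88, 10.38 and 8.79 in papilloma-associated arrays, with log2 differences of -1.50 and -0.48 by its other probe sets. Mertk, a receptor for dying cells, was the other call and fell by 1.82 on the log2 scale. Among 11 MHC class II and dendritic cell markers, with sums of 11.28 to 12.13 against 10.74 to 11.35, H2-Ab1, a class II chain, differed by -1.60 ± 0.42, a call that was lost under 6 alternatives (-1.51 to -1.25). In these sorted bulk samples fewer cells of a type and less RNA per cell cannot be told apart. Pericyte and smooth muscle markers gave 1 higher (Cnn1) and 3 lower of 12: Kcnj8, Ndufa4l2 (10.75, 10.63, 11.01 and 11.19 in wild-type against 7.85, 7.85, 7.73 and 7.35 in papilloma-associated arrays) and Abcc9 (-2.12 ± 0.58, or -2.71 without papilloma-associated array 4), lost under 8 alternatives (-2.18 to -1.80). The other Abcc9 probe sets gave log2 differences of -4.36 and -3.25, both called lower. The sums of the pericyte and smooth muscle list were 13.12 to 13.36 in wild-type and 12.42 to 12.73 in papilloma-associated arrays. The sum was thus lower although Cnn1 was higher.

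Keratinocyte markers ranged widely in papilloma-associated arrays, with sums of 11.43, 11.82, 13.04 and 12.76 in arrays 1 to 4 against 11.31 to 11.62 in wild-type and 12.10 to 13.24 in inflamed arrays. Of 22 measured, 3 were called higher and 0 lower, and without papilloma-associated array 3 a single one was higher. Krt6b, a keratin of wounded and hyperplastic epidermis that was not among the 22, read 2.76, 2.49, 2.84 and 2.68 in wild-type, 2.55, 2.75, 2.99 and 2.75 in inflamed and 7.92, 8, 9.51 and 7.97 in papilloma-associated arrays (at least 4.56-fold higher). Krt6a read 7.11, 8.01, 9.84 and 10.55, Krt14, the basal keratin, 7.65, 8.92, 10.51 and 9.15, and Dsp, desmoplakin, 7.98, 6.70, 10.12 and 11.30 in papilloma-associated arrays 1 to 4, against wild-type means of 6.56 ± 0.23, 6.67 ± 0.29 and 5.92 ± 0.90. The other basal keratin, Krt5, read 8.13 ± 0.31 and 8.61 ± 0.45 and did not pass the test. The call was lost for Krt6a under 6 alternatives (1.99 to 2.32), for Krt14 on a probe set free of cross-matching (1.66), with the replicate block and without wild-type array 1 (2.28) and for Dsp under 7 alternatives (2.35 to 3.26). Krt6a differed by 2.90 without papilloma-associated array 1, against 2.31 with it. Dsp, dim in wild-type, was at least 6.13-fold higher, and its fitted difference of 3.11 was 3.89 without papilloma-associated array 2 and 2.35 without array 4. The groups overlapped for Dsp, and its other probe sets gave 0.105 and 1.95, neither called. Krt6a and Krt6b are near-identical copies, and their probe sets may share transcripts. Among 8 neutrophil markers, with sums of 8.77 to 9.05 in wild-type and 9.20 to 9.56 in papilloma-associated arrays, S100a9, which keratinocytes also make, was at least 1.87-fold higher, a call that was lost with the Gapdh covariate (1.06), and Mpo, a granule enzyme that was dim in wild-type, differed by 0.94 ± 0.26, lost under 11 alternatives (0.69 to 0.94). Of 8 Schwann cell markers Pmp22 alone was called (-0.86 ± 0.24), lost under 14 alternatives (-0.94 to -0.83). None of the T and NK cell, mast cell, endothelial, melanocyte, adipocyte, skeletal muscle or erythrocyte markers was called, at 8, 8, 12, 7, 4, 10 and 2 measured. The part of epithelial or immune RNA in the results above was not tested.

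**Figure D5:**
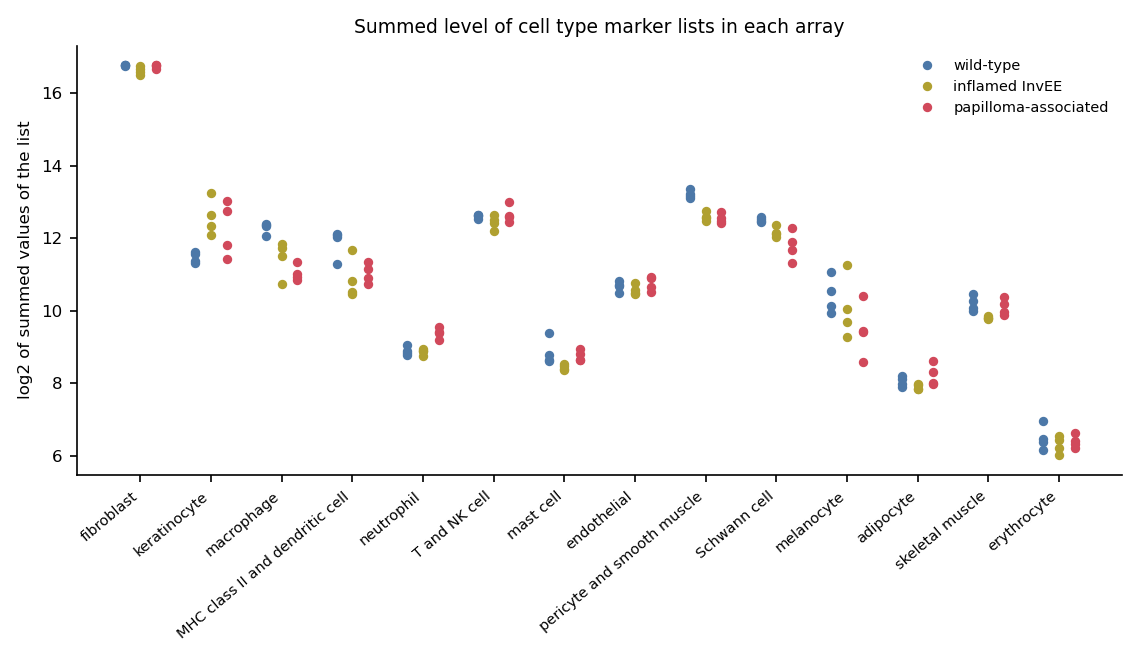
Log2 of the summed values of each cell type marker list in every array of the 3 groups. The fibroblast sum, which rests on genes near the top of the range, is level, the macrophage sum, mostly Csf1r in wild-type arrays, and the pericyte sum are lower in the 4 papilloma-associated arrays than in the 4 wild-type arrays, and keratinocyte markers reach 13.04 in papilloma-associated array 3 and 13.24 in inflamed array 1.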

How the data were processed

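Expression was measured on Affymetrix mouse genome arrays, 12 in all, 4 in each of 3 groups, from RNA amplified with the NuGEN Pico kit, per the labels. The deposited values are on a log2 scale and span 2.08 to 14.96. The submitters' processing notes name limma, and how probes were summarised and arrays normalized is not given in the sources used here. A fixed number of arrays, not a read depth, limits the precision.

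Of 45101 probe sets, 34945 carried 1 gene symbol in the platform annotation, 932 several, 9160 none, and 64 were controls. Where a gene had several, the one brightest on average across the 12 arrays stood for it, which left 18193 genes, 9010 of them with several probe sets. Values were quantile-normalized and fitted with limma (version 3.58.1, R 4.3.3) as 3 group means on all 12 arrays, and p-values were adjusted by the Benjamini-Hochberg method over all genes, with a call at an adjusted p under 0.05. A group mean under 6.16 was called dim. A bound ("at least") sets each array of the dim group that lies below this limit to the limit. No detection calls were used. The arrays' control probes were compared by exact two-sided permutation tests, adjusted over the 3 measures. The code was tested on simulated data.

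Genes named are the 15 largest and the 10 smallest p-values among calls in each direction, 6 genes of prior interest, and called or characteristic members of 47 pathway and 14 cell type lists. Members and lists were chosen with earlier results of these data known. Alternatives were the deposited, median-centred and ribosomal protein-scaled values, the 8 arrays alone, dim genes left out, other probe set rules, a replicate block, the Gapdh covariate and each array left out in turn. Promoter sequences are from RefSeq (GRCm38.p6), with the first listed window of each gene, and 14452 of the tested genes matched.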

Additional observations from a re-analysis of the deposited data

Results flagged for a closer look

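Each gene described above and each control measure was searched in both groups for a single array lying far from the other 3 (Dixon's ratio). Of 538 groups of 4 arrays searched, 30 held such an array, close to the share of about 5% that chance alone gives. A single entry below may thus be chance. Values are log2, with the range of the other 3 arrays in brackets. Papilloma-associated array 4 held 13 of them and wild-type array 4 8, and wild-type arrays 1 and 3 and papilloma-associated array 2 held 0.

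In papilloma-associated array 4 these were Ccl12 at 4.17 (7.86 to 8.53), Cd44 at 12.41 (10.55 to 10.82), Col1a2 at 14.51 (14.55 to 14.55), Gstm1 at 7.70 (9.58 to 9.96), Hspg2 at 12.47 (11.81 to 11.91), Ifit1 at 9.29 (10.21 to 10.25), Igf1 at 13.53 (13.32 to 13.33), Itgav at 11.87 (10.90 to 10.99), Itgb1 at 11.70 (11.29 to 11.36), Klf4 at 7.78 (10.31 to 10.70), Nfkbie at 3.85 (6.56 to 6.81), Smo at 11.60 (10.51 to 10.65) and Tagln at 12.63 (11.93 to 11.96). In wild-type array 4 these were Bst2 at 9.31 (8.75 to 8.83), Cthrc1 at 7.34 (8.15 to 8.26), Gstm1 at 11.26 (11.93 to 11.99), Mylk at 7.58 (9.69 to 9.96), Postn at 9.20 (11.32 to 11.61), Prelp at 12.54 (12.06 to 12.14), S100a9 at 6.29 (5.86 to 5.90) and Sox2 at 4.16 (5.20 to 5.38). Matrix and interferon-stimulated genes are among both sets, and the part of RNA quality in them was not tested.

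In papilloma-associated array 3 these were Gm32031 at 6.95 (5.84 to 6.01), Krt6b at 9.51 (7.92 to 8), Nrg1 at 5.45 (6.24 to 6.30) and Wnt4 at 8.18 (9.24 to 9.38). In papilloma-associated array 1 these were Ccn2 at 10.07 (11.09 to 11.17) and S100a9 at 6.35 (7.26 to 7.41). In wild-type array 2 these were Cald1 at 10.79 (10.86 to 10.86), Ptgs2 at 4.10 (5.00 to 5.11) and Rspo1 at 11.02 (10.69 to 10.73). Krt6b, a keratin of hyperplastic epidermis, was highest in the array that also had the highest keratinocyte marker sum of its group, 13.04.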

How the results depend on the processing

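The count of 1756 called genes moved less with the scaling than with the samples, the covariate or the mean over probe sets. It was 1094 (550 higher, 544 lower) with the 8 arrays of the comparison alone, 1138 (526 lower) with the Gapdh covariate, and 1259 to 1792 when any array of the 3 groups was left out. It was 1712 on the values as deposited, 1686 with median centring (58.5% higher), 1735 without dim genes, 2040 as the mean over probe sets and 1647 on probe sets free of cross-matching. Ribosomal scaling gave 1766 calls, 1300 of them shared with the main fit. It turned the split to 1330 higher and 436 lower (75.3% higher, against 50.3%). The replicate block gave 1551 calls. Same-numbered wild-type and papilloma-associated arrays deviated together with correlations of 0, 0.083, 0.161 and 0.177, and 2 of 4 papilloma-associated arrays correlated best with their own number, so the numbers were not taken to pair the samples. Of 250 called genes described, 153 were called under every alternative run and 247 kept their sign. The sign turned for Lama3 (0.15) and Rrm2 (-0.27) on probe sets free of cross-matching and for Myh10 (-0.01) as the mean over probe sets.

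The Gapdh 3′ minus 5′ difference between the groups, 0.84, was 0.96 and past the threshold on quantile-normalized values (exact permutation p = 0.0286) and 0.49 to 1.03 when an array was left out. The actin difference, 0.35, was 0.22 to 0.41. The spike difference, 0.38, was -0.02 to 0.85. With 4 arrays a group the median standard error was 0.226 log2 units, and for levels under 6.16 fold changes are given as bounds, and log2 differences as fitted.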
